A study of Caenorhabditis elegans with 12 samples.

Results

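The genes described here are 10 longevity and stress transcription factors of *Caenorhabditis elegans*: *skn-1* (T19E7.2), *hsf-1* (Y53C10A.12), *pqm-1* (F40F8.7), *hlh-30* (W02C12.3), *pha-4* (F38A6.1), *elt-2* (C33D3.1), *elt-3* (K02B9.4), *xbp-1* (R74.3), *atfs-1* (ZC376.7) and *daf-12* (F11A1.3). They were picked by name and found by gene identifier. All 10 of them were among the 46653 gene identifiers counted and among the 16741 genes that passed edgeR's filter on low counts. Their mRNA was measured by RNA-sequencing in 12 populations of young adult hermaphrodites at 20 °C, with 3 populations per genotype, collected before embryos could be seen. The genotypes were *age-1(hx546); rde-4(ne301)* double mutants, *age-1(hx546)* single mutants, *rde-4(ne301)* single mutants and N2 wild type (WT). *age-1* encodes the phosphatidylinositol 3-kinase of Insulin/IGF-1 signaling (IIS), and *rde-4* encodes a protein that hands long double-stranded RNA to Dicer in RNA interference. Both mutations are germline alleles that all tissues carry, and RNA came from whole worms.

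When IIS is reduced, *C. elegans* lives longer and resists stress better, and the FOXO factor DAF-16 is the best known mediator of this. The genes studied here encode the factors that act beside it or in parallel programs. SKN-1, HSF-1, HLH-30, XBP-1 and ATFS-1 switch on defense against oxidants, unfolded cytosolic proteins, failing lysosomes, endoplasmic reticulum stress and mitochondrial stress. PQM-1 acts with or against DAF-16, DAF-12 is a steroid receptor of dauer formation and germline longevity, and PHA-4, ELT-2 and ELT-3 set and maintain tissue identity in the pharynx, intestine and hypodermis. Many of these proteins are known to be regulated after transcription, by phosphorylation, nuclear entry, splicing or import into an organelle, none of which a count of mRNA per gene records.

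No transcript of the 10 factors passed the test in any comparison of the 4 genotypes. Some genes of the lists of their regulators and known targets did. For the *age-1* effect averaged over both *rde-4* states, their shares over the 10 lists together lay near those of all genes tested. Single lists ranged more widely. The share that rose in that average ran from 0% (XBP-1 list of 15 and PHA-4 list of 8 genes tested) to 33.3% (SKN-1 list of 15). Of all genes 13.2% rose. The lists are small and were chosen with earlier results of these data known.

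The libraries held 74501098 to 82446102 counts. The *rde-4* transcript (T20G5.11) had a log2 fold change of −2.55 in *rde-4* against WT (SE 0.11, edgeR adjusted p = 1.09e-07) and of −2.37 in *age-1; rde-4* against *age-1* (SE 0.11, adjusted p = 4.94e-07). Populations differed within genotypes and between them. The mean log2 level of 29 sperm markers, each gene centred on its 12 libraries, was 0.83, 0.30 and 0.07 in *age-1; rde-4*, 0.49, 0.82 and 0.49 in *age-1*, 0.44, 0.58 and −0.70 in *rde-4*, and −1.68, −0.37 and −1.26 in WT. Every WT library lay below every library of both *age-1* genotypes in the sperm markers. In *age-1* against WT 23 of the 29 were called higher and 0 lower (edgeR), beside 12.2% and 2.58% of all genes. Replicate 1 of *age-1; rde-4* stood apart from the other 11 libraries in its oocyte markers (−0.57 over 17 genes, against −0.13 to 0.23) and intestine markers (−0.51 over 11 genes, against −0.23 to 0.27). Their part in the results that follow was not tested, and the log2 values that leaving it out moved by over 1.5 times are also given without it.

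Levels were compared between genes as CPM (read counts scaled to a common library size, with TMM factors) per kilobase of the longest annotated transcript. *xbp-1* had the highest level of the 10 with a mean of 107 CPM per kb over the 12 libraries, at percentile 91.9 of the protein-coding genes tested. It was followed by *hsf-1* at 53.3, *skn-1* at 35.2, *atfs-1* at 19.9 and *pqm-1* at 13.2 CPM per kb. The tissue GATA factors *elt-2* and *elt-3* lay lower at 4.37 and 2.83 CPM per kb. *hlh-30* was at 1.78, *daf-12* at 0.956 and *pha-4* at 0.673 CPM per kb, the last at percentile 20.9. Steps at 4 places of this order exceeded the spread of the libraries, in that no library of the upper gene reached down to any library of the lower one: *xbp-1* over *hsf-1*, *skn-1* over *atfs-1*, *pqm-1* over *elt-2*, and *hlh-30* over *daf-12*. The other neighbours, *hsf-1* and *skn-1*, *atfs-1* and *pqm-1*, *elt-2* and *elt-3*, *elt-3* and *hlh-30*, and *daf-12* and *pha-4*, overlapped between libraries. Compared within the same library, *hsf-1* was above *skn-1*, *atfs-1* above *pqm-1* and *elt-3* above *hlh-30* in every library. The order of *elt-2* and *elt-3*, and that of *daf-12* and *pha-4*, was not the same in every library.

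**Figure D1:**
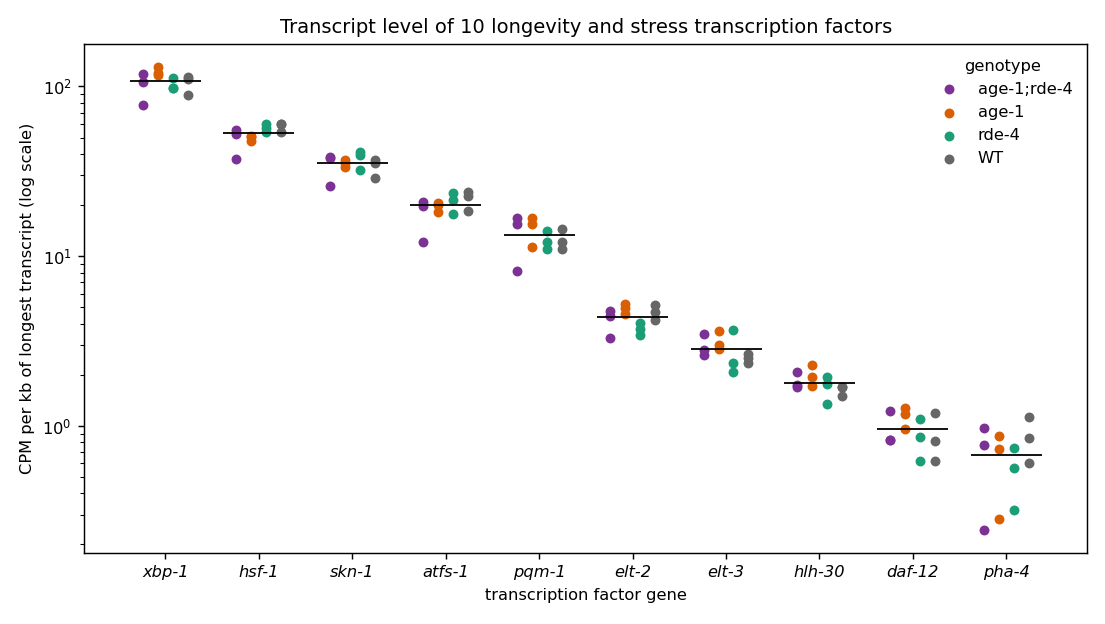
Level of each transcription factor gene in CPM per kb of its longest transcript on a log axis; points are libraries coloured by genotype and the line is the mean of the 12 libraries. The means run from 107 CPM per kb for *xbp-1* to 0.673 CPM per kb for *pha-4*, with the widest spread of libraries in *pha-4*.

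The stress-response factors came first. *skn-1* encodes an Nrf-like factor that switches on glutathione and phase II detoxification genes and that IIS kinases hold out of the nucleus. The gene lies on chromosome IV from 5651039 to 5660384 of WBcel235, on the minus strand, with 4 annotated transcripts, and 41 bp of its exons overlap *csn-5* on the other strand. It had 67.2, 98.8 and 100.3 CPM in *age-1; rde-4* (replicates 1 to 3), 91.8, 95.2 and 86.9 CPM in *age-1*, 83.3, 103 and 106 CPM in *rde-4*, and 75.1, 95.9 and 92.5 CPM in WT. All 4 genotypes overlapped, and replicate 1 of *age-1; rde-4* was the lowest of the 12 libraries. The log2 fold change of *age-1* against WT was 0.06 (SE 0.16, adjusted p = 0.837), and its 95% interval of 0.821 to 1.32 on the linear fold scale left out a 1.5-fold change in either direction. In *rde-4* against WT it was 0.15 (SE 0.16, adjusted p = 0.813).

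*hsf-1* encodes the heat shock factor, which switches on chaperone genes and is needed for the long life of IIS mutants. The gene has 9 exons in its longest transcript and lies on chromosome I from 11953507 to 11963085, on the minus strand. It had 92.3, 130.2 and 138 CPM in *age-1; rde-4*, 126, 118 and 125 CPM in *age-1*, 134, 142 and 149 CPM in *rde-4*, and 149, 133 and 149 CPM in WT. The 3 *age-1* libraries lay below all 3 WT libraries, whereas the double mutant, with its replicate 1 far below the others, overlapped both *rde-4* and WT. Averaged over WT and *rde-4* backgrounds, the log2 difference made by the *age-1* mutation was −0.23 (SE 0.09, 95% interval −0.43 to −0.03, unadjusted p = 0.0263 from edgeR), with an adjusted p of 0.0943. This was the lowest adjusted p of the 10 genes in any comparison, and over 19 alternative settings it ran between 0.0525 and 0.257. Without replicate 1 of *age-1; rde-4* the log2 difference was −0.16 (SE 0.06, edgeR adjusted p = 0.0974). In *age-1* against WT alone it was −0.23 (SE 0.13, adjusted p = 0.247), and −0.22 (SE 0.08, adjusted p = 0.0674) without replicate 1 of *age-1; rde-4*.

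*xbp-1* encodes the bZIP factor of the endoplasmic reticulum unfolded protein response, whose mRNA the nuclease IRE-1 splices into its active form. Counts per gene do not separate the spliced from the unspliced form. The gene lies on chromosome III from 4193809 to 4195358 on the plus strand and has 3 exons. It had 112, 172 and 153 CPM in *age-1; rde-4*, 169, 188 and 174 CPM in *age-1*, 141, 141 and 161 CPM in *rde-4*, and 128, 164 and 159.7 CPM in WT. Every *age-1* library was above every WT library, with a mean of 177 CPM in *age-1* (SD 9.7, n = 3) and of 151 CPM in WT (SD 19.3). The log2 fold change of *age-1* against WT was 0.23 (SE 0.15, adjusted p = 0.289), and that of *age-1; rde-4* against *age-1* was −0.28 (SE 0.15, adjusted p = 0.516). The lowest *age-1; rde-4* library was again replicate 1, and without it the difference from *age-1* was −0.13 (SE 0.11, adjusted p = 0.613). The mean *age-1* effect on *xbp-1* was 0.18 (SE 0.07, adjusted p = 0.105) without that library and 0.11 (SE 0.10, adjusted p = 0.480) with it. In *age-1* against WT the value without that library was 0.24 (SE 0.10, edgeR adjusted p = 0.101).

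*atfs-1* encodes the bZIP factor of the mitochondrial unfolded protein response, which enters the nucleus when its import into mitochondria fails. It lies on chromosome V from 14193663 to 14197700 on the plus strand and has 7 annotated transcripts. Its level was 23.2, 38.03 and 39.9 CPM in *age-1; rde-4*, 34.7, 39.1 and 38.4 CPM in *age-1*, 33.9, 41.1 and 44.9 CPM in *rde-4*, and 35.6, 43.1 and 45.6 CPM in WT. Replicate 1 of *age-1; rde-4* was 0.70 below the 12-library mean on the log2 scale, and the genotypes overlapped. Relative to WT the log2 fold change was −0.15 in *age-1* (SE 0.19, adjusted p = 0.632) and −0.30 in *age-1; rde-4* (SE 0.19, adjusted p = 0.345). The second value was −0.09 (SE 0.13, adjusted p = 0.730) without replicate 1 of *age-1; rde-4*.

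*hlh-30* encodes the worm TFEB, which switches on lysosome, lipase and autophagy genes. It spans chromosome IV from 4014793 to 4034951 on the minus strand and has 13 annotated transcripts, the most of the 10 genes. It had 5.35, 4.39 and 4.47 CPM in *age-1; rde-4*, 5.87, 4.46 and 5.01 CPM in *age-1*, 4.57, 5.04 and 3.46 CPM in *rde-4*, and 4.37, 4.35 and 3.87 CPM in WT. Every library of both *age-1* genotypes lay above every WT library, the nearest being 4.39 CPM in *age-1; rde-4* and 4.37 CPM in WT. Against WT its log2 fold change was 0.17 in *age-1; rde-4* (SE 0.19, adjusted p = 0.607) and 0.29 in *age-1* (SE 0.19, adjusted p = 0.329). For the double mutant it was 0.07 (SE 0.21, adjusted p = 0.871) without its replicate 1, which held the highest of its 3 levels.

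**Figure D2:**
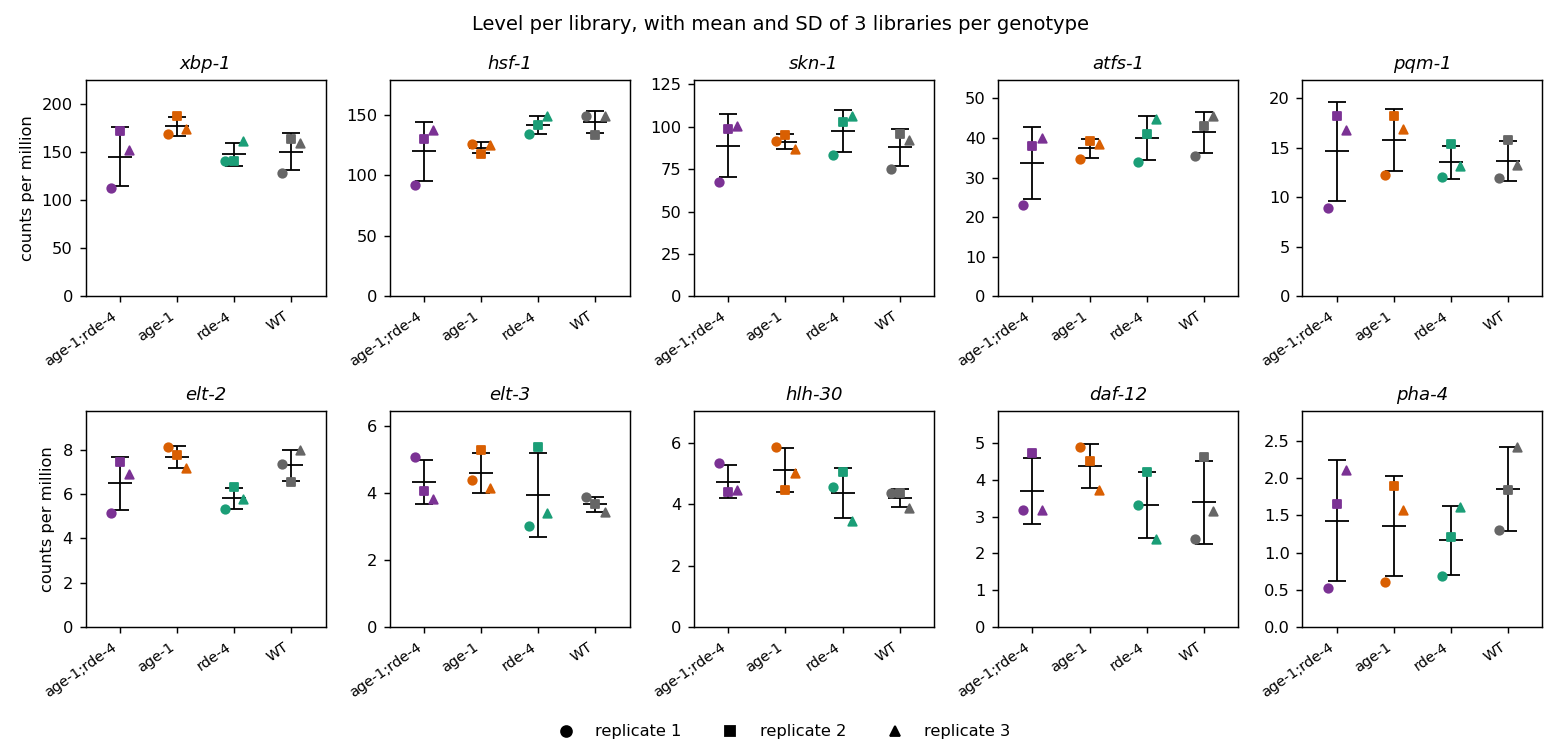
CPM of each transcription factor gene in every library, by genotype from *age-1; rde-4* on the left to WT on the right; symbols mark replicates and bars the mean and SD of 3 libraries. *hsf-1* has all 3 *age-1* libraries (118 to 126 CPM) under the WT libraries (133 to 149 CPM), and replicate 1 of *age-1; rde-4* is the lowest point in 7 of the 10 panels.

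*pqm-1* and *daf-12* encode regulators tied to IIS and to steroid signaling. PQM-1 is a zinc finger factor that binds the DAF-16-associated element and is nuclear when DAF-16 is not. *pqm-1* (chromosome II from 11150391 to 11152595, minus strand, 1 transcript) had 8.90, 18.2 and 16.8 CPM in *age-1; rde-4*, 12.28, 18.2 and 16.8 CPM in *age-1*, 12.04, 15.3 and 13.2 CPM in *rde-4*, and 11.9, 15.8 and 13.2 CPM in WT. Replicate 1 was the lowest library in each of the 4 genotypes, and the genotypes overlapped. The log2 fold change of *age-1* against WT was 0.21 (SE 0.25, adjusted p = 0.599). Without replicate 1 of *age-1; rde-4* the mean *age-1* effect was 0.29 (SE 0.13, adjusted p = 0.130), against 0.16 (SE 0.17, adjusted p = 0.527) with it.

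DAF-12 is the nuclear receptor of the dafachronic acids, steroids made by DAF-9. Its gene is the longest of the 10, on chromosome X from 10635908 to 10666875 on the plus strand, with 10 annotated transcripts. *daf-12* had 3.17, 4.71 and 3.18 CPM in *age-1; rde-4*, 4.89, 4.51 and 3.71 CPM in *age-1*, 3.31, 4.21 and 2.40 CPM in *rde-4*, and 2.40, 4.62 and 3.14 CPM in WT. The *age-1* mean of 4.37 ± 0.604 CPM was the highest and the WT mean was 3.39 ± 1.13 CPM (SD, n = 3 each), with overlap of the libraries. *age-1* differed from WT by 0.37 on the log2 scale (SE 0.29, 95% interval −0.25 to 0.99, edgeR adjusted p = 0.399).

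The tissue identity factors are read here from whole worms, in which fewer cells of a type and less RNA per cell cannot be told apart. *elt-2* encodes the GATA factor that maintains intestinal gene expression throughout life. The gene lies on chromosome X from 10481240 to 10483441 on the plus strand. It had 5.13, 7.42 and 6.89 CPM in *age-1; rde-4*, 8.13, 7.75 and 7.15 CPM in *age-1*, 5.33, 6.30 and 5.78 CPM in *rde-4*, and 7.33, 6.54 and 7.98 CPM in WT. All *rde-4* libraries lay below all WT libraries, with a log2 fold change of −0.33 (SE 0.18, 95% interval −0.71 to 0.05, edgeR adjusted p = 0.460). Over both *age-1* states the *rde-4* mutation made a log2 difference of −0.29 (SE 0.12, 95% interval −0.55 to −0.02, unadjusted p = 0.0385 from edgeR) with an adjusted p of 0.286. Over 19 alternatives that adjusted p ran between 0.185 and 0.491, and without replicate 1 of *age-1; rde-4* the log2 difference was −0.22 (SE 0.11, edgeR adjusted p = 0.329).

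The 11 intestine markers tested, of 12 listed, had summed levels of 1699.5, 2037 and 2193 CPM in *age-1; rde-4*, 2183, 2337 and 2457 CPM in *age-1*, 1889, 2008 and 2111 CPM in *rde-4*, and 2841, 2914 and 2639.6 CPM in WT. In the mean *rde-4* effect 4 of these 11 fell and 0 rose (edgeR), beside 1.27% and 3.02% of all genes. The part of these markers in the *elt-2* value was not tested.

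*elt-3* encodes the GATA factor of the hypodermis. It lies on chromosome X from 13934874 to 13941216 on the plus strand. Its level was 5.09, 4.08 and 3.84 CPM in *age-1; rde-4*, 4.41, 5.29 and 4.15 CPM in *age-1*, 3.03, 5.40 and 3.42 CPM in *rde-4*, and 3.89, 3.69 and 3.44 CPM in WT. The *age-1* libraries lay above the WT libraries, and the *rde-4* libraries held both the lowest and the highest value of the 12. In *age-1* against WT the log2 fold change was 0.33 (SE 0.23, adjusted p = 0.347). The 10 hypodermis markers had a median of 0.45 in this comparison, against 0.03 over all genes. Of them 2 rose and 0 fell (edgeR), beside 12.2% and 2.58% of all genes. The part of these markers in the *elt-3* value was not tested.

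*pha-4* encodes the FoxA factor that specifies the pharynx and that is needed for the long life of diet-restricted worms. It lies on chromosome V from 20753052 to 20760317 on the plus strand. It had the fewest reads of the 10 genes, with 43 to 182 counts per library, and the widest spread. Its level was 0.528, 1.66 and 2.102 CPM in *age-1; rde-4*, 0.607, 1.89 and 1.57 CPM in *age-1*, 0.686, 1.21 and 1.61 CPM in *rde-4*, and 1.303, 1.84 and 2.42 CPM in WT. Replicate 1 was the lowest library in each of the 4 genotypes. Its log2 fold change in *rde-4* relative to WT was −0.67 (SE 0.52, 95% interval −1.80 to 0.47, edgeR adjusted p = 0.701), and in *age-1* it was −0.45 (SE 0.52, 95% interval −1.58 to 0.68, edgeR adjusted p = 0.590). A 2-fold decrease lies inside both intervals, so this fit did not exclude a change of that size for *pha-4*. With the replicate number as a block in the model, the value in *rde-4* relative to WT was −0.72 (SE 0.28). Its unadjusted p was 0.0286 and its adjusted p 0.189 (edgeR). In *age-1* the blocked value was −0.55 (SE 0.28, edgeR adjusted p = 0.175). The 7 pharynx markers tested, of 10 listed, had summed levels of 32.04, 30.03 and 24.7 CPM in *age-1; rde-4*, 56.6, 49.7 and 43.4 CPM in *age-1*, 22.5, 29.8 and 15.9 CPM in *rde-4*, and 24.03, 50.4 and 27.3 CPM in WT, without the low value of replicate 1 in every genotype.

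**Figure D3:**
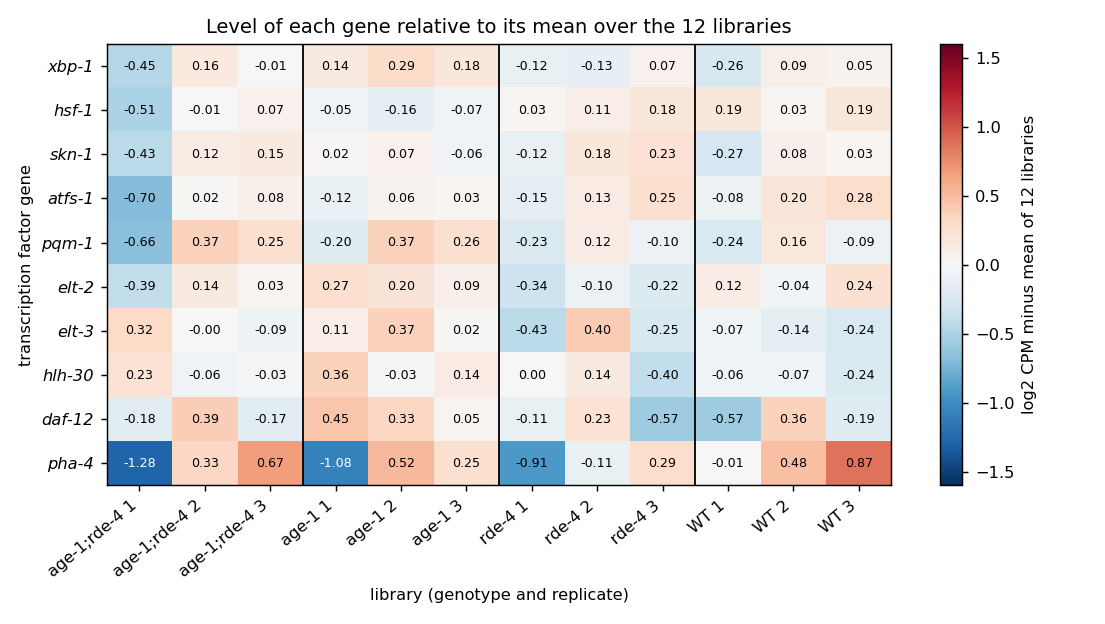
Log2 CPM of each gene in each library minus its mean over the 12 libraries, with *age-1; rde-4* on the left and WT on the right; red is above the mean and blue below. Replicate 1 of *age-1; rde-4* is below the mean for 8 of the 10 genes, down to −1.28 for *pha-4*.

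The spread within genotypes set what could be seen. The median SD of log2 CPM within a genotype was 0.239 over the 10 genes, against 0.306 over all genes tested, and it ran from 0.169 for *hsf-1* to 0.772 for *pha-4*. Between the highest and the lowest of the 12 libraries *pha-4* differed 4.59-fold, and the other 9 genes differed 1.58-fold to 2.05-fold. Replicate 1 of *age-1; rde-4* was the lowest library for 7 of the 10 genes, namely *skn-1*, *hsf-1*, *pqm-1*, *pha-4*, *elt-2*, *xbp-1* and *atfs-1*.

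The effect of the *age-1* mutation was asked first in worms with intact RNA interference. In *age-1* against WT, 0 of the 10 factors passed edgeR's quasi-likelihood test and 0 had an unadjusted p under 0.05. Of all genes tested, 14.8% were called in this comparison (12.2% higher and 2.58% lower), and 33.2% had an unadjusted p under 0.05. The median log2 fold change was 0.14 over the 10 genes and 0.03 over all genes, and the median size of the change was 0.23 and 0.33. The 95% intervals of 5 of the 10 left out a 1.5-fold change in either direction, and those of 9 left out a 2-fold change, *pha-4* being the exception. Groups that did not overlap were found for 4 of the 10, *hsf-1* below WT and *hlh-30*, *elt-3* and *xbp-1* above it, beside 41.5% of all genes tested.

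In *age-1; rde-4* against *rde-4*, the same mutation on the other background, 0 of the 10 were called by edgeR, 0 had an unadjusted p under 0.05 and 0 had groups that did not overlap. Over all genes these shares were 1.59%, 14% and 20.5%. *hsf-1* had the lowest adjusted p here, with a log2 fold change of −0.24 (SE 0.13, edgeR adjusted p = 0.450). Without replicate 1 of *age-1; rde-4* its value was −0.09 (SE 0.09, edgeR adjusted p = 0.791), and *pqm-1* then had the lowest, at 0.37 (SE 0.19, edgeR adjusted p = 0.462). In the mean *age-1* effect over both backgrounds 0 were called and 1, *hsf-1*, had an unadjusted p under 0.05. Here 17.7% of all genes were called (13.2% higher and 4.49% lower) and 35.7% had an unadjusted p under 0.05. Intervals within 1.5-fold were found for 8 of the 10 and within 2-fold for all 10.

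The effect of losing *rde-4* was read in the same way. In *rde-4* against WT, 0 of the 10 were called by edgeR and 0 had an unadjusted p under 0.05, and 4.49% (3.63% higher and 0.866% lower) and 14.4% of all genes did. The median size of the log2 change was 0.05 over the 10 genes and 0.20 over all genes. *elt-2* was the 1 gene whose groups did not overlap, beside 16.3% of all genes. Without replicate 1 of *age-1; rde-4* its unadjusted edgeR p here was 0.0432 (adjusted p = 0.290). Of all genes 15.9% were then under 0.05 unadjusted. In *age-1; rde-4* against *age-1*, 0 were called, 0 had an unadjusted p under 0.05 and 0 had groups that did not overlap, beside 0.424%, 11% and 21.7% of all genes. The log2 fold change was below 0 for 9 of the 10, *pha-4* being the exception, with a median of −0.11 against −0.06 over all genes. This count rested on replicate 1 of *age-1; rde-4*: without it 5 of the 10 were below 0, with a median of −0.03 against −0.03 over all genes, and *skn-1*, *hsf-1*, *pqm-1* and *atfs-1* were above 0. In the mean *rde-4* effect 0 were called and *elt-2* alone had an unadjusted p under 0.05, beside 4.29% (3.02% higher and 1.27% lower) and 15.1% of all genes, and 9 of the 10 intervals lay within 1.5-fold.

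Whether the mutations modified each other was tested by the interaction, the effect of *rde-4* in *age-1* minus its effect in WT. Of the 10 genes 0 were called by edgeR and 0 had an unadjusted p under 0.05, against 0.113% and 12% of all genes. The interaction values ran from −0.26 for *xbp-1* (SE 0.21, adjusted p = 0.680) to 0.74 for *pha-4* (SE 0.74, adjusted p = 0.753). Without replicate 1 of *age-1; rde-4* these were −0.11 for *xbp-1* (SE 0.15, adjusted p = 0.775) and 1.12 for *pha-4* (SE 0.63, adjusted p = 0.446). *hsf-1* was the 1 gene whose interval lay within 1.5-fold (−0.41 to 0.39), so an interaction of that size lay inside the intervals of the other 9. In the double mutant against WT, 0 of the 10 were called and 0 had an unadjusted p under 0.05, beside 12.1% and 26.5% of all genes, and 1, *hlh-30*, had groups that did not overlap, beside 28.1%. The comparisons share libraries, WT most of all, so their values are not independent of one another. DESeq2, run as an alternative, also called 0 of the 10 in each of the 8 comparisons.

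**Figure D4:**
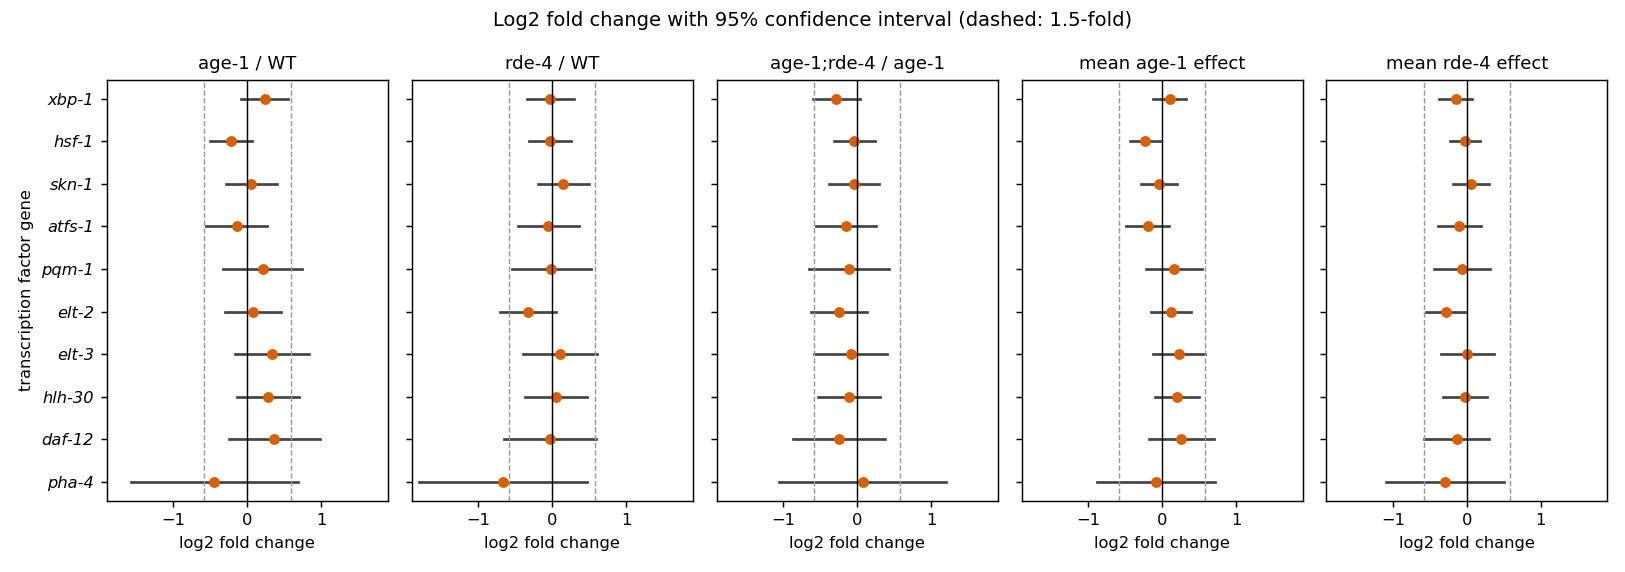
Log2 fold change (points) and 95% confidence interval (lines) of each gene in 3 comparisons of genotypes and in the mean effects of *age-1* and *rde-4*; dashed lines mark a 1.5-fold change. In the mean effects the intervals of *hsf-1* (*age-1*) and *elt-2* (*rde-4*) end just short of 0, and neither passed the test after adjustment.

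Regulators and known targets of each factor were then read from the same test. The 10 lists hold 147 genes that were tested, some of them in 2 lists. In the mean *age-1* effect 22 of the 147 rose (15.0%) and 9 fell (6.12%), and 18 of these 31 calls were made whichever of the 12 libraries was left out. The share of all genes that rose or fell was given above as 13.2% and 4.49%, so the lists as a whole lay near the background. Without 1 library the calls numbered 13 to 26 higher and 5 to 9 lower, while 6.04% to 25.7% of all genes were called. The list calls dropped by over 1.5 times without WT replicate 3 (13 and 5), *age-1* replicate 2 (13 and 5) or *rde-4* replicate 3 (14 and 6). For the genes that fell they also did so without WT replicate 1 (15 and 5). The 13 calls that did not hold throughout were all lost without WT replicate 3 and all lost without *age-1* replicate 2. In *age-1* against WT the counts were 14 and 5, beside 14.8% of all genes called. They were 6 and 1 without WT replicate 1 (2.53% of all genes), 23 and 7 without WT replicate 2 (24.5%) and 3 and 2 without WT replicate 3 (2.06%). They were 12 and 3 without *age-1* replicate 1 (8.29%), 5 and 1 without *age-1* replicate 2 (2.28%), and 18 and 9 without *age-1; rde-4* replicate 1 (17.5%). In *rde-4* against WT 2 rose, *ncr-2* by 1.76 (SE 0.29, edgeR adjusted p = 0.00567) and the collagen gene *rol-6* by 1.87 (SE 0.48, edgeR adjusted p = 0.0477), and 2 fell, *asp-1* by 0.76 (SE 0.14, edgeR adjusted p = 0.00979) and *dod-24*. Of these 4 calls, 1 (*ncr-2*) was made whichever library was left out, and *asp-1* was lost without *rde-4* replicate 2. With the mean collagen level as a covariate, 14 rose and 6 fell in the mean *age-1* effect, and 6.8% of all genes were called. In *age-1* against WT 0 of the 147 were then called, beside 0.131% of all genes. The covariate is the mean of 115 collagen genes, with *col-19* and *col-144* of the ELT-3 list among them. It was −0.04, 0.47 and 0.48 in *age-1* and −0.87, 0.12 and −0.44 in WT, so it is not independent of genotype. The median log2 difference in the mean *age-1* effect was 0.30 for the SKN-1 list, 0.29 for HSF-1, −0.71 for PQM-1, 0.21 for HLH-30, 0.20 for PHA-4, −0.06 for ELT-2, 0.21 for ELT-3, −0.07 for XBP-1, −0.14 for ATFS-1 and −0.04 for DAF-12, and 0.01 over all genes tested.

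Of 15 genes of the SKN-1 list, 5 rose in the mean *age-1* effect and 0 fell, and 4 of the 5 held whichever library was left out. *gst-4*, a glutathione S-transferase used as the standard reporter of SKN-1, had 34.4 ± 4.79 CPM in *age-1; rde-4*, 46.0 ± 4.72 CPM in *age-1*, 21.01 ± 4.29 CPM in *rde-4* and 23.1 ± 7.35 CPM in WT (SD, n = 3), a log2 difference of 0.85 (SE 0.15, edgeR adjusted p = 0.0045). A second glutathione S-transferase, *gst-10*, rose by 1.09 (SE 0.22, adjusted p = 0.0081), and the glucuronosyltransferase gene *ugt-11* by 1.29 (SE 0.21, adjusted p = 0.00319). F20D6.11, which encodes a predicted oxidoreductase, rose by 0.58 (SE 0.07, adjusted p = 0.000451). The remaining call was *nit-1*, a nitrilase gene, at 0.66 (SE 0.21, adjusted p = 0.0466), made in 3 of the 12 fits without 1 library. The *skn-1* transcript itself had a mean log2 difference of −0.04 (SE 0.11), and of 0.04 (SE 0.08) without replicate 1 of *age-1; rde-4*.

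The HSF-1 list of 19 genes held 1 gene that rose and 1 that fell. *sip-1*, a small heat shock protein, had 439.7 ± 104.4 CPM in *age-1; rde-4*, 475 ± 19.9 CPM in *age-1*, 274 ± 38.3 CPM in *rde-4* and 210.0 ± 17.3 CPM in WT. Its mean log2 difference was 0.93 (SE 0.11, edgeR adjusted p = 0.000434), and it held whichever library was left out. *ddl-1*, which encodes a binding partner that holds HSF-1 inactive, fell by 0.30 (SE 0.10, adjusted p = 0.0489), a call made in 2 of the 12 fits that leave out 1 library. The other 17 genes, which include the inducible *hsp-16* and *hsp-70* genes, did not pass the test.

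In the list of PQM-1 and DAF-16 class II genes, 12 of 13 could be tested, and 1 rose and 3 fell. *dod-24*, a gene named for being downstream of DAF-16, had 17.6 ± 4.76 CPM in *age-1; rde-4*, 14.7 ± 5.09 CPM in *age-1*, 29.7 ± 9.11 CPM in *rde-4* and 69.2 ± 20.7 CPM in WT. Its mean log2 difference was −1.50 (SE 0.22, edgeR adjusted p = 0.00141), and in *rde-4* against WT it fell by 1.22 (SE 0.31, edgeR adjusted p = 0.0418), the second call being made in 6 of the 12 fits without 1 library. *dod-23* fell by 0.71 (SE 0.12, adjusted p = 0.0037). *dod-21* fell by 2.93 (SE 0.93, adjusted p = 0.0476), with 0 to 0.18 CPM in *age-1; rde-4*, 0 to 0.116 CPM in *age-1*, 0.14 to 0.417 CPM in *rde-4* and 0.316 to 2.37 CPM in WT. *gcy-18*, a guanylyl cyclase of a thermosensory neuron, rose by 0.66 (SE 0.20, adjusted p = 0.0404). These 2 calls were made in 2 (*dod-21*) and 4 (*gcy-18*) of the 12 fits without 1 library. *gcy-18* also rose in the mean *rde-4* effect, by 1.07 (SE 0.20, adjusted p = 0.00921).

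The HLH-30 list of 18 genes had 5 that rose and 0 that fell, of which *lipl-2* held whichever library was left out. *lipl-2*, a lysosomal lipase, had 8.83 ± 6.24 CPM in *age-1; rde-4*, 6.43 ± 5.28 CPM in *age-1*, 2.13 ± 1.27 CPM in *rde-4* and 0.679 ± 0.436 CPM in WT, a mean log2 difference of 2.65 (SE 0.51, adjusted p = 0.00713). The related lipase gene *lipl-1* rose by 2.11 (SE 0.57, adjusted p = 0.0291), *mml-1*, a Mondo-family factor known to act with HLH-30, by 0.41 (SE 0.12, adjusted p = 0.0376), and the autophagy gene *lgg-1* by 0.23 (SE 0.07, adjusted p = 0.039). These 3 calls were made in 7, 4 and 2 of the 12 fits without 1 library.

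The ELT-2 list had 21 genes tested, with 3 that rose and 2 that fell in the mean *age-1* effect, all 5 of which held whichever library was left out. *mtl-1*, a metallothionein, had 19.05 ± 14.7 CPM in *age-1; rde-4*, 7.09 ± 3.51 CPM in *age-1*, 1.35 ± 0.331 CPM in *rde-4* and 0.828 ± 0.596 CPM in WT, a log2 difference of 3.46 (SE 0.45, adjusted p = 0.000691). *ftn-1*, a ferritin, rose by 2.60 (SE 0.31, adjusted p = 0.000364), and *ges-1*, a gut esterase, by 0.65 (SE 0.11, adjusted p = 0.00313). *pho-1*, an intestinal acid phosphatase, fell by 0.53 (SE 0.07, adjusted p = 0.000783), and the aspartyl protease gene *asp-1* by 0.49 (SE 0.10, adjusted p = 0.00886). Both *mtl-1* and *ftn-1* are known DAF-16 targets too.

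In the mean *rde-4* effect 4 of the 21 genes of the ELT-2 list fell and 0 rose, beside 1.27% and 3.02% of all genes. They were *asp-1* at −0.65 (SE 0.10, adjusted p = 0.0027), *pho-1* at −0.44 (SE 0.07, adjusted p = 0.00382), the gut intermediate filament *ifb-2* at −0.66 (SE 0.13, adjusted p = 0.0139) and the proton pump subunit *vha-6* at −0.41 (SE 0.10, adjusted p = 0.035). The first 3 held whichever library was left out, and *vha-6* held in 6 of the 12 fits. *asp-1*, *ifb-2* and *vha-6* are also among the intestine markers, so the list and the markers are not separate evidence.

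Of the ELT-3 list, 3 of 14 genes rose and 0 fell in the mean *age-1* effect. The epidermal antimicrobial peptide gene *nlp-29* rose by 0.83 (SE 0.18, adjusted p = 0.0135) and the adult collagen gene *col-19* by 0.56 (SE 0.13, adjusted p = 0.0147), and both held whichever library was left out. *sta-2*, a STAT factor of the epidermis, rose by 0.67 (SE 0.18, adjusted p = 0.0302) and held in 5 of the 12 fits. Of 115 cuticle collagen genes 23 rose and 0 fell in the same contrast, beside 13.2% and 4.49% of all genes. They include *col-19* and *col-144* of this list, so the list and the collagens are not separate evidence. The part of the other collagens in the *col-19* value was not tested.

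Neither the XBP-1 list nor the PHA-4 list had a called gene in the mean *age-1* effect. Of the 15 genes of the XBP-1 list, which include *hsp-4* and *ire-1*, 0 were called by edgeR and 3 had an unadjusted p under 0.05, all lower. Of the 8 PHA-4 list genes tested, of 12 listed, 0 were called and 2 had an unadjusted p under 0.05. Of all genes, 35.7% had an unadjusted p under 0.05. DESeq2 called 2 genes of the XBP-1 list and 1 of the PHA-4 list, all lower, beside 25.6% of all genes called.

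In the ATFS-1 list of 14 genes 1 rose and 2 fell. *haf-1*, the mitochondrial peptide exporter that acts upstream of ATFS-1, had 2.77 ± 1.17 CPM in *age-1; rde-4*, 2.74 ± 0.192 CPM in *age-1*, 8.47 ± 0.941 CPM in *rde-4* and 7.21 ± 2.16 CPM in WT. This was a log2 difference of −1.50 (SE 0.22, edgeR adjusted p = 0.00128). *gpd-2*, a glyceraldehyde-3-phosphate dehydrogenase, rose by 0.70 (SE 0.12, adjusted p = 0.00376). Both held whichever library was left out, while *timm-23*, a subunit of the mitochondrial import channel, fell by 0.19 (SE 0.06, adjusted p = 0.0433) and held in 1 of the 12 fits.

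The DAF-12 list had 13 of 15 genes tested, with 3 that rose and 1 that fell. *lips-17*, a lipase gene known to depend on DAF-12 in worms without a germline, rose by 0.85 (SE 0.15, adjusted p = 0.00384) and held whichever library was left out. *ncr-2*, a sterol transporter of the Niemann-Pick family, had 11.9 ± 3.14 CPM in *age-1; rde-4*, 6.52 ± 1.25 CPM in *age-1*, 9.78 ± 3.28 CPM in *rde-4* and 2.89 ± 0.649 CPM in WT. It rose by 0.73 in the mean *age-1* effect (SE 0.20, edgeR adjusted p = 0.0306; 6 of the 12 fits) and by 1.31 in the mean *rde-4* effect (SE 0.20, edgeR adjusted p = 0.00311; all 12 fits). *cdr-6* rose by 0.40 (SE 0.10, adjusted p = 0.0207) and *fard-1*, a fatty acyl reductase, fell by 0.38 (SE 0.09, adjusted p = 0.0172), which held in 9 and 8 of the 12 fits.

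Among 42 other longevity and stress regulators tested, of 44 listed and *daf-16* among them, 4 rose (9.52%) and 1 fell (2.38%) in the mean *age-1* effect. The nuclear receptor gene *nhr-62*, needed for longevity under dietary restriction, rose by 0.69 (SE 0.13, adjusted p = 0.00617) and held whichever library was left out. The hypoxia-responsive receptor gene *nhr-57* rose by 0.49 (SE 0.14, adjusted p = 0.0328) and *mdl-1*, a MAD-like factor, by 0.67 (SE 0.21, adjusted p = 0.0421), which held in 6 and 2 of the 12 fits. The rise of *mml-1* was given with the HLH-30 list. The gene that fell was *atf-7*, a bZIP factor of innate immunity, at −0.27 (SE 0.09, adjusted p = 0.0477), which held in 3 of the 12 fits. In both *rde-4* contrasts, against WT and averaged over both *age-1* states, edgeR and DESeq2 called 0 of the 42. An unadjusted edgeR p under 0.05 was found for 2 (against WT) and 1 (averaged), beside 14.4% and 15.1% of all genes.

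**Figure D5:**
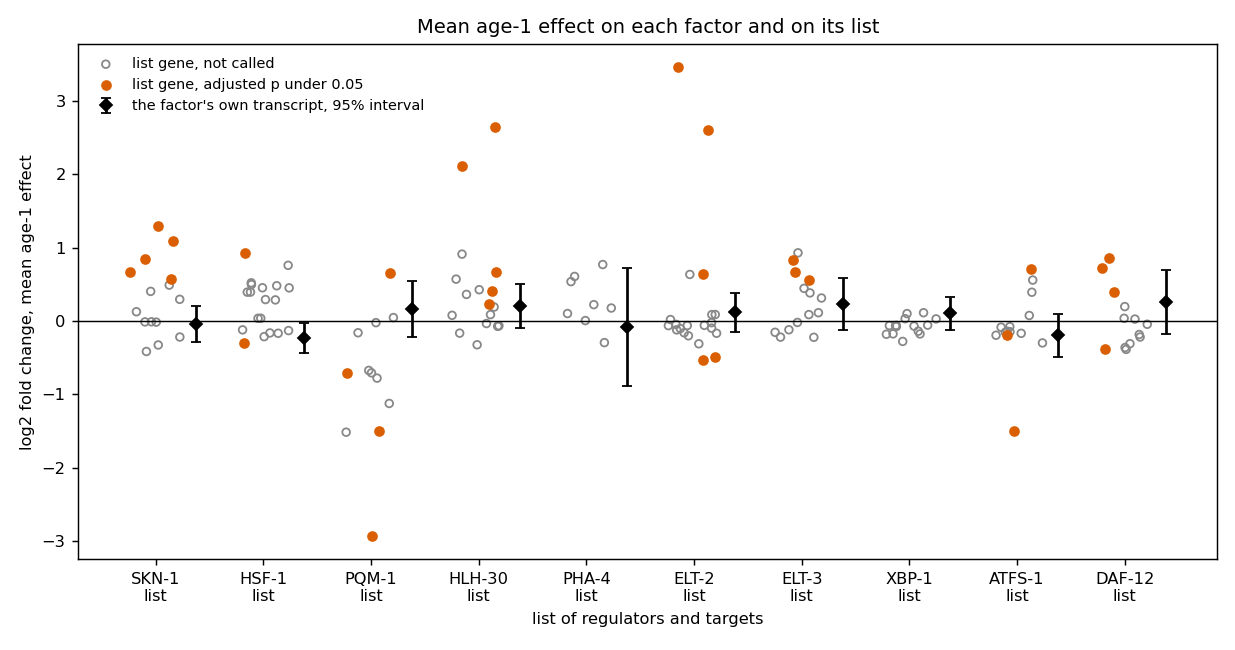
Log2 difference made by *age-1*, averaged over both *rde-4* states, for each gene of the 10 lists (filled circles: adjusted p under 0.05; open circles: not called) and for the factor's own transcript (diamond with 95% interval). Called genes run from −2.93 (*dod-21*) to 3.46 (*mtl-1*), while the 10 factors lie between −0.23 and 0.26.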

How the data were processed

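mRNA was measured in 12 whole-worm populations, 3 independent populations per genotype. Ribosomal RNA was depleted and libraries were strand-specific. The authors used HISAT2 2.0.5 and the WBcel235 build for mapping and StringTie for quantification, and deposited whole-number read counts per gene without normalization. Whether strand was used in counting is not given in the sources used here. Library totals were 74501098 to 82446102 counts. Per the labels, each population was 1 biological replicate.

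The test was that of edgeR 4.0.16 under R 4.3.3: filterByExpr (16741 of 46653 genes), TMM, and 1 quasi-likelihood model of the 4 genotypes in all 12 libraries, two-sided, with Benjamini-Hochberg adjustment over all genes tested and a threshold of 0.05. The mean *age-1* effect averages *age-1* minus WT and *age-1; rde-4* minus *rde-4*, and the mean *rde-4* effect averages the other 2 differences. Log2 CPM used a prior count of 2. Gene structures came from the Ensembl annotation of the same build. Named were the 10 factors, *rde-4*, and up to 4 called genes per list and comparison by smallest p, with *nit-1*, *asp-1* and *atf-7* named beyond that rule after their values were seen. The factors were picked by name, by a rule that uses no measured value, but they and the lists were chosen with earlier results of these data known. The test was checked on simulated data. Alternatives were DESeq2 1.42.0, RLE size factors, a minimum mean of 50 normalized counts, no filter on low counts, protein-coding genes alone, the compared groups alone, a replicate block, a collagen covariate, and leaving out each library.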

Additional observations from a re-analysis of the deposited data

How the results depend on the processing

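Of 1570 values of the 10 factors under the alternatives, over 80 pairs of gene and comparison, 0 were called, and 102 values in 40 pairs had the other sign from the reported value, none of them called. No setting therefore changed a call on the factors, but a p that misses the threshold does not show that levels were equal. Same-numbered libraries tended to pair, though not throughout, and the main test did not use the pairing. Of 18 correlations of their deviations 12 were above 0.1 (−0.02 to 0.37), and 14 of 18 were highest for the library's own number. With the replicate number as a block, 0 of the 10 factors were called in each of the 8 comparisons. Unadjusted edgeR p was then under 0.05 for *xbp-1* in *age-1* against WT (0.0465) and *age-1; rde-4* against *age-1* (0.0187). The same held for *atfs-1* in *age-1; rde-4* against *rde-4* (0.0458) and WT (0.0207), and *hsf-1* in *age-1; rde-4* against WT (0.0432). Of all genes, 40%, 17.1%, 20.6% and 33.8% had such a p in these comparisons, in that order. *atfs-1* did too in the mean *age-1* effect (0.035), beside 44.2%. With the block 4594 of all genes were called in *age-1* against WT, against 2478 without it. That count was 3764 with DESeq2, 1256 without a filter, 22 with the collagen covariate and 353 to 4187 with 1 library left out, for which the cause was not tested. By CPM without length, *hlh-30* and *elt-3* exchanged places at 7 and 8 in the order of levels. The fit of the compared groups alone was not run for the interaction and the mean effects, which need all 4 groups. Over the 147 target and regulator genes, the calls higher and lower in the mean *age-1* effect were 34 and 20 with the block, 25 and 17 with DESeq2 and 13 and 6 without a filter, against 22 and 9 as reported. Of all genes tested, 30.9%, 25.6% and 5.53% were called in these settings, against 17.7% as reported. In *age-1* against WT the list calls were 25 and 11 with the block and 19 and 11 with DESeq2, against 14 and 5. The shares of all genes there were 27.4% and 22.5%, against 14.8%. In the mean *rde-4* effect the list calls were 4 and 10 with the block and 4 and 7 with DESeq2, against 2 and 4. Of all genes, 7.28% and 7.35% were called in that effect, against 4.29%. With 3 libraries per genotype, 4 to 6 of the 10 intervals lay within 1.5-fold in the comparisons of 2 genotypes and 1 in the interaction. In the interaction *pha-4* and *daf-12* reached beyond 2-fold.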
